A study of Mus musculus with 30 samples.

Results

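The comparison described here is anti-PD1 against control IgG in tumors grown in heterozygous ARE-del mice, 7 RNA-seq libraries of the 30 in the series. The 3 libraries labelled ARE-del HET anti-PD1 are set against the 4 labelled ARE-del HET control IgG2A, and every gene of the table was tested. All 7 are subcutaneous B16F10 tumors, a transplantable mouse melanoma, in C57BL/6 female hosts of the genotype ARE-del +/-. The mice of the first group received 0.25 mg of anti-mouse PD1 and those of the other a control rat IgG2A of unstated dose. Both antibodies were given 2 times a week, beginning after 7 days of tumor growth. The allele belongs to the host: the injected tumor cells come from 1 cultured line and are not described as carrying it, and both groups share the heterozygous host. The ages of the mice, the day of harvest and whether replicates are separate animals are not given, so a p-value here speaks only for the variation among these libraries.

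PD-1, encoded by Pdcd1, is an inhibitory receptor on activated T cells. Its ligands PD-L1 (Cd274) and PD-L2 (Pdcd1lg2) dampen T cell signaling, and antibodies to PD-1 are given to release it. T cells that are released produce interferon gamma (Ifng), which acts through transcription factors such as Irf1 to raise chemokines such as Cxcl9, guanylate-binding proteins, antigen presentation genes and Cd274 itself. The ARE-del allele lacks an AU-rich element of the interferon gamma gene, a sequence that shortens the life of its mRNA, so carriers have chronic interferon gamma exposure as background. The series asks what anti-PD1 does in such hosts.

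Before the results, IgG replicate 2 has to be set apart from the other 6 libraries. Mitochondrially encoded genes took 6.53% of its reads, against 1.64 to 2.61% in the other 6 libraries. The 50 genes with most reads took 23.4%, against 13.6 to 16.1%, and 1554 genes of the table had no read, against 531 to 1015. Of the 15002 genes tested, IgG replicate 2 was the highest of the 7 libraries in 5059 and the lowest in 5186, together 68.3%. Depth was 23974949 to 26784566 reads in the anti-PD1 libraries and 21849047 to 29995970 reads in the IgG libraries. All 7 tumor markers checked (Mitf, Tyr, Tyrp1, Dct, Pmel, Mlana and Sox10) were at 215.9 CPM (read counts scaled to library size) or more in every one of the 7 libraries. The sample names also carry an L number of unstated meaning, which is 7 for all anti-PD1 libraries and for IgG replicates 2 and 3, 6 for IgG replicate 1 and 8 for IgG replicate 4. Results are therefore given with all 4 IgG libraries, without replicate 2 and, where it matters, within L number 7. That last comparison has only IgG replicates 2 and 3 as controls, so it still rests in part on replicate 2.

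No gene passed the test between anti-PD1 and IgG tumors. Of 15002 genes tested with limma on the deposited log2 CPM values, 0 passed a Benjamini-Hochberg adjusted p of 0.05 (0% called), and 0 passed without IgG replicate 2 (again 0%). At an unadjusted p under 0.05 there were 144 genes with all libraries, 90 higher and 54 lower under anti-PD1, and 201 without IgG replicate 2, 102 higher and 99 lower. Both counts are a smaller share of the 15002 genes than the 0.05 that this threshold gives when no gene differs. This does not show that no gene differs, and the count depended on the fit. With all IgG libraries it was 92 in a fit of the 7 libraries alone and 3004 with library weights. The voom form of limma, run on the read counts behind the values, also called 0 genes, with 134 at an unadjusted p under 0.05. The standard error of a gene's log2 difference had a median of 0.28, so differences of modest size could not be told from the spread in a typical gene. Leaving out anti-PD1 replicate 2 gave 1 call, Zfp341, a zinc finger gene with 26.2, 3.90 and 10.2 CPM in the anti-PD1 libraries and 5.27, 4.17, 5.36 and 6.60 CPM in the IgG libraries. Its log2 difference was 0.93 with all libraries and 1.62 without that replicate. Weighting libraries by their estimated quality gave 50 calls, but this fit gave weights of 9.43 to anti-PD1 replicate 3 and 0.85 to anti-PD1 replicate 2, and of 5.46 to IgG replicate 1 and 0.12 to IgG replicate 2.

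The libraries did not separate by antibody. The root mean square difference over all genes tested was 0.44 to 0.66 log2 units between the anti-PD1 libraries. Between an anti-PD1 library and IgG replicates 1, 3 or 4 it was 0.41 to 0.84, with a median of 0.54 over 9 pairs, and among those IgG libraries it was 0.54 to 0.70. The nearest pair of all was anti-PD1 replicate 3 and IgG replicate 3, which share an L number. IgG replicate 2 lay 0.90 to 1.04 from the anti-PD1 libraries and 1.01 to 1.20 from the other IgG libraries. A gene's standard deviation (SD) had a median of 0.20 log2 units over the anti-PD1 libraries and 0.42 over the 4 IgG libraries, or 0.21 without IgG replicate 2. The direction of the difference also turned on that library: 5107 genes changed sign when it was left out.

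**Figure D1:**
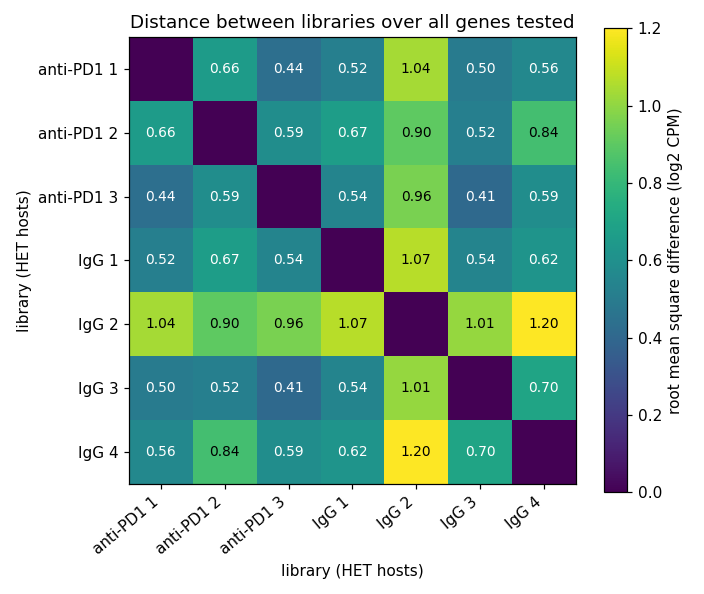
Root mean square difference in log2 CPM over 15002 genes for each pair of the 7 libraries from HET hosts, anti-PD1 libraries first. IgG 2 lies 0.90 to 1.20 from every other library, while pairs between the antibodies without it lie at 0.41 to 0.84, overlapping the pairs within each antibody.

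The target of the antibody and its T cell readouts were close to the detection limit in both groups. Ifng had no read in the 3 anti-PD1 libraries, which allows up to 0.0396 CPM over the group (3 reads, counting error only), and 1 read in all in the 4 IgG libraries, in replicate 4. Pdcd1 had 0.191, 0 and 0.0742 CPM in anti-PD1 tumors, against 0.0655, 0, 0 and 0.189 CPM in IgG tumors. Cd8a, the co-receptor of cytotoxic T cells, had 0.153, 0.0443 and 0.111 CPM under anti-PD1 and 0.0328, 0, 0 and 0.264 CPM under IgG. The groups overlapped for each of these genes, and a few reads decide every value. In a bulk sample fewer cells of a type and less RNA per cell cannot be told apart.

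The ligand Cd274 had 34.1, 33.6 and 30.9 CPM in anti-PD1 tumors and 20.2, 15.9, 44.0 and 21.4 CPM in IgG tumors. The anti-PD1 libraries were alike and lay above 3 of the IgG libraries and below IgG replicate 3. Its log2 difference was 0.48 ± 0.38 (limma standard error, SE), with a 95% interval of -0.30 to 1.26 and p = 0.229 by a two-sided exact permutation test. Without IgG replicate 2 the difference was 0.30. Pdcd1lg2 was too scarce for the fit, with 0.0763, 0 and 0 CPM under anti-PD1 and 0.0983, 0, 0.0454 and 0.0377 CPM under IgG. Cd40, the receptor targeted by other antibodies of the series, averaged 0.325 ± 0.121 CPM under anti-PD1 and 0.415 ± 0.266 CPM under IgG (SD, n = 3 and 4).

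Genes downstream of interferon gamma varied more between tumors of 1 group than between the groups. Irf1, a transcription factor induced by interferon gamma, had 34.7, 16.4 and 24.5 CPM under anti-PD1, against 18.7, 24.4, 24.2 and 35.7 CPM under IgG, and its groups overlapped. The T cell chemokine Cxcl9 had 7.33, 1.02 and 3.12 CPM under anti-PD1 and 0.590, 0.656, 3.36 and 9.99 CPM under IgG. Its lowest and highest libraries were both IgG tumors, and the 95% interval of its log2 difference ran from -1.85 to 2.94. Gbp2, a guanylate-binding protein that acts against intracellular pathogens, had 18.0, 10.4 and 10.01 CPM under anti-PD1 and 2.88, 4.06, 12.3 and 14.2 CPM under IgG, a log2 difference of 0.87 ± 0.84 (SE).

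Antigen presentation genes overlapped as well. H2-K1, a class I heavy chain, had 395.2, 342.1 and 399.0 CPM in anti-PD1 tumors and 209.9, 322.9, 249.3 and 457.2 CPM in IgG tumors, a log2 difference of 0.35 with a 95% interval of -0.51 to 1.21. Cd74, the invariant chain of class II molecules, had 16.6, 4.87 and 30.4 CPM under anti-PD1 and 10.8, 10.1, 8.17 and 79.8 CPM under IgG. IgG replicate 4 stood alone at the top, and without it the log2 difference was 0.49 in place of -0.27. In the tumor cell genes, Mitf, the master regulator of melanocytes, averaged 487.4 ± 247.6 CPM under anti-PD1 and 645.2 ± 315.0 CPM under IgG, and Pmel, a pigment granule protein, averaged 8496 ± 2227 CPM under anti-PD1 and 11800 ± 7939 CPM under IgG. Mki67, a proliferation marker, had 609.1, 376.9 and 479.3 CPM under anti-PD1 and 547.1, 126.3, 402.3 and 584.9 CPM under IgG, so IgG replicate 2 alone was low. Of the 16 genes in this set (those above, Isg15 and Irf7), 0 had all anti-PD1 libraries on 1 side of all IgG libraries. Over the 15002 genes tested, 143 (0.953%) lay above and 154 (1.03%) below all IgG libraries, so 0 of 16 is near the share over all genes. The smallest two-sided exact permutation p among the 16 genes was 0.229, where 3 against 4 samples can reach 0.057 at the least, and 3 against 3 can reach 0.1.

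**Figure D2:**
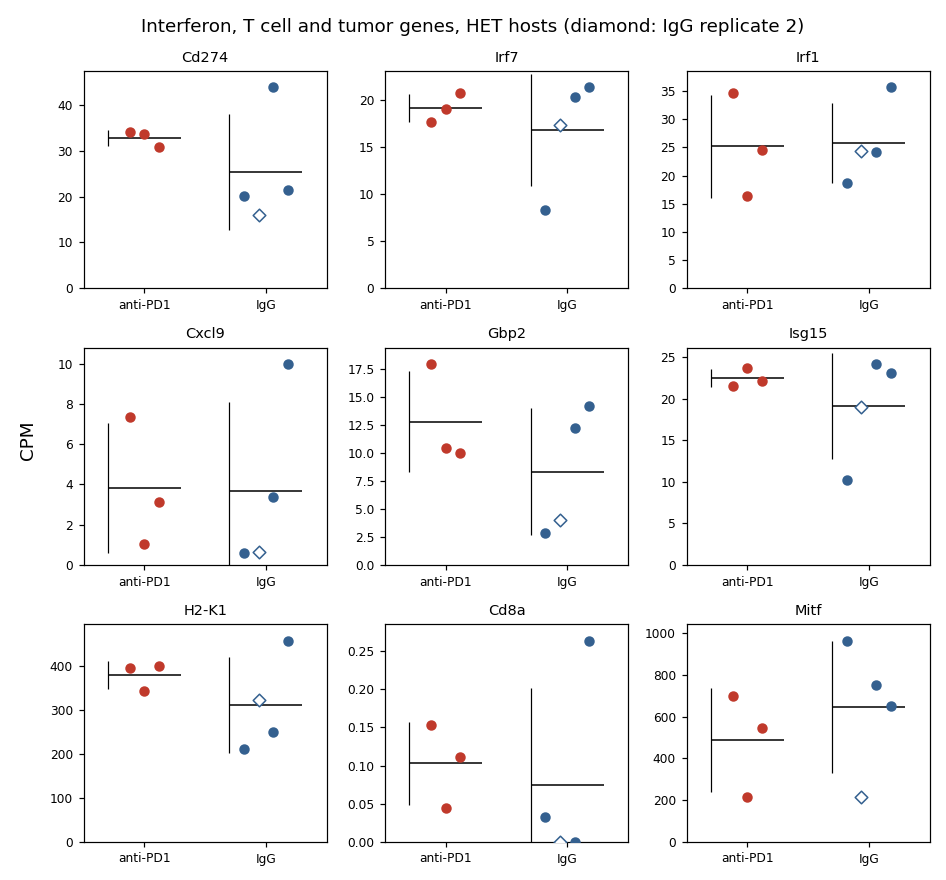
CPM of 9 genes in each library from HET hosts, anti-PD1 at left and IgG at right, with the group mean (horizontal line) and SD (vertical line), and a diamond for IgG replicate 2. The groups overlap in every panel, as for Irf1 at 16.4 to 34.7 CPM under anti-PD1 and 18.7 to 35.7 CPM under IgG.

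Over whole gene lists, members of the interferon responses stood somewhat higher in anti-PD1 tumors, without a called gene. Of 33 interferon gamma response genes in the fit, 28 had a positive log2 difference with a median of 0.32, beside 52.3% of all genes positive and a median of 0.013. Without IgG replicate 2, 24 were positive and the median was 0.15. The list score, the mean log2 CPM of the members in a library, was 3.22, 2.12 and 2.79 in anti-PD1 tumors and 1.76, 1.67, 2.58 and 3.46 in IgG tumors. The median member stood 0.80 and 0.96 above IgG replicates 1 and 2, 0.03 above replicate 3 and 0.68 log2 units below replicate 4 (a difference of -0.68), so the group difference depends on which control is used. Irgm1, an immunity-related GTPase and the member of most reads, had 89.1, 82.3 and 97.7 CPM under anti-PD1 and 41.7, 80.3, 81.3 and 105.0 CPM under IgG.

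The type I interferon list behaved alike, with less spread under anti-PD1. Of 36 members in the fit, 34 had a positive log2 difference with a median of 0.33, and without IgG replicate 2 there were 29 with a median of 0.17. Scores were 4.08, 4.00 and 4.15 in anti-PD1 tumors and 3.32, 3.30, 4.10 and 4.27 in IgG tumors. IgG replicates 1 and 2 were low, while replicates 3 and 4 lay among or above the anti-PD1 libraries. Isg15, a ubiquitin-like modifier, had 21.6, 23.7 and 22.2 CPM under anti-PD1 and 10.2, 18.96, 24.2 and 23.1 CPM under IgG, with a log2 difference of 0.31 ± 0.38 (SE). Irf7, the transcription factor that amplifies type I interferon, had 17.6, 18.97 and 20.7 CPM under anti-PD1 and 8.26, 17.3, 20.3 and 21.3 CPM under IgG. In both genes IgG replicate 1 alone was low. Bst2 (tetherin, which holds budding virus at the cell surface) had a log2 difference of 0.11, and Eif2ak2 (the double-stranded RNA kinase PKR) one of 0.43 ± 0.31 (SE). Within L number 7 the list medians were 0.52 for interferon gamma and 0.37 for type I genes, beside 0.019 for all genes. The controls there are IgG replicates 2 and 3 only. Against replicate 2 the median differences were 0.96 for interferon gamma and 0.74 for type I genes. Against replicate 3 they were 0.03 and -0.08, so the values within L number 7 rest on replicate 2. How reads of near-identical family members (Gbp, Ifit, Oas and class I genes) were assigned is not stated, so their division between paralogs is uncertain.

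The upstream bases are shown for 3 members of the type I list, whose score was lowest in IgG replicates 1 and 2. The bases are the 150 before the RefSeq gene start (build GRCm38.p6), written 5′ to 3′ on the gene's strand, with GAAANNGAAA or its reverse complement in capitals, the core of the interferon-stimulated response element. The stretches are chr4:156200819-156200968 on the minus strand for Isg15, chr19:34583379-34583528 on the plus strand for Ifit3, and chr12:26456453-26456602 on the minus strand for Rsad2, chosen among the members that hold the motif and none of whose bases lie in an exon of GENCODE vM21.
Isg15: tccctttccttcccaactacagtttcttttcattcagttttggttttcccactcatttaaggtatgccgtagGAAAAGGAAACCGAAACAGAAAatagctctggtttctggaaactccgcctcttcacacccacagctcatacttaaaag
Ifit3: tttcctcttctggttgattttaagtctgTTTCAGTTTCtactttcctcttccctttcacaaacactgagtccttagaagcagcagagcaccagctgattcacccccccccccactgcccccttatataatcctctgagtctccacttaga
Rsad2: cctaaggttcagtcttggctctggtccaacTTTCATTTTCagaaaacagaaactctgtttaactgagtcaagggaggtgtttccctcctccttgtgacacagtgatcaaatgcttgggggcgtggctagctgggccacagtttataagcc
In Isg15, 3 overlapping matches form 1 run. Of 36 members, 27 had a promoter in the table, and 11 of these (40.7%) held the motif, against 433 of all 27025 promoters (1.6%). Ifit3, of a family of antiviral interferon-induced proteins, had 32.0, 87.6 and 53.0 CPM under anti-PD1 and 12.2, 51.8, 74.0 and 31.1 CPM under IgG. Rsad2 (viperin) had 59.3, 85.6 and 50.7 CPM under anti-PD1 and 38.1, 61.7, 74.7 and 41.8 CPM under IgG. In both genes IgG replicate 1 was the lowest library, while IgG replicate 2 lay among the others, unlike in the list score. A match is a description of the letters and not of binding.

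Immune cell lists were small and low. Of 30 T cell genes, 11 were in the fit, and of 23 cytotoxic and NK cell genes, 5 were. A gene enters the fit where its log2 CPM is above 0 in at least 3 of the 30 libraries, which may be libraries of other groups. The members left are therefore not the whole list. T cell genes had a median log2 difference of 0.32, with 8 of 11 positive, and 0.28 to 0.40 on leaving out any 1 library. Cytotoxic and NK cell genes had a median of 0.32, with 3 of 5 positive, and 0.00 to 0.46 on leaving out any 1 library. No member of either list was called. T cell scores were 0.33, -0.04 and 0.22 in anti-PD1 tumors and -0.11, -0.23, -0.22 and 0.29 in IgG tumors. Tcf7 (a T cell transcription factor) and Cxcr3 (the receptor for Cxcl9) had the most reads of that list, with log2 differences of 0.26 and 0.24, and Cxcr3 was high in both replicates numbered 2, at 17.0 CPM under anti-PD1 and 17.4 CPM under IgG. Ccl5, a T cell chemokine, averaged 1.34 ± 0.578 CPM under anti-PD1 and 1.02 ± 0.265 CPM under IgG (SD, n = 3 and 4). Gzmc, a granzyme of killer cells, averaged 0.122 ± 0.0513 CPM under anti-PD1 and 0.0567 ± 0.0464 CPM under IgG. That is 2, 4 and 3 reads under anti-PD1 and 3, 0, 2 and 1 reads under IgG. Of the 5 cytotoxic and NK cell genes in the fit only Ccl5 had a higher mean log2 CPM, so the other members rest on few reads. B cell genes, led by the transcription factor Ebf1 and the receptor Cd22 (log2 differences of 0.18 and -0.18), had a median of -0.01 over 6 members, which was -0.20 without IgG replicate 2 and 0.77 within L number 7. Of 18 checkpoint genes 12 had a positive difference, with a median of 0.04, and 1 of them, the adenosine receptor Adora2a, lay above all IgG libraries at 1.56, 1.99 and 1.45 CPM under anti-PD1 and 0.590, 0.716, 1.36 and 0.867 CPM under IgG. Lgals9 and Pvr, ligands of inhibitory receptors and the members of most reads, had log2 differences of 0.22 and 0.05. Of the 15002 genes tested, 143 (0.953%) lay above all IgG libraries in this way.

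Class II, myeloid and stromal lists had medians on either side of 0, and several turned with the libraries used. Class II presentation genes had a median log2 difference of -0.10 over 10 members, which was -0.26 without IgG replicate 2 and 0.12 within L number 7, and the proteases Ctss and Ctsh had differences of 0.28 and 0.02. Macrophage genes had a median of -0.12 over 29, with 9 positive, and their most abundant members, Gpnmb and Apoe, are also made by melanoma cells. Ly6c2, a monocyte marker, lay below all IgG libraries, at 0.0763, 0 and 0.0371 CPM under anti-PD1 and 0.164, 0.119, 0.136 and 0.603 CPM under IgG, a handful of reads. So did 154 of all 15002 genes tested (1.03%). Dendritic cell genes had a median of 0.11 over 12, with the actin bundler Fscn1 at -0.10. Mast cell genes had a median of -0.22 over 7 (0.25 within L number 7), led by Kit, which melanocytes also express, and the transcription factor Gata2, with log2 differences of -0.50 and -0.22. Neutrophil genes had a median of -0.39 over 15 (-0.72 without IgG replicate 2), but 0.47 within L number 7. Their members of most reads were G0s2, a lipolysis inhibitor with a log2 difference of 0.41, and the lectin receptor Clec4d at -0.44. Within L number 7 the controls are IgG replicates 2 and 3. The median neutrophil difference was 1.19 against replicate 2 and -0.11 against replicate 3. In the same order these values were 0.54 and 0.22 for fibroblast, 0.43 and 0.10 for mast cell, and -0.22 and 0.29 for class II genes. Fibroblast and matrix genes had a median of -0.11 over 30, or 0.42 within L number 7 with 22 positive, and endothelial genes one of 0.11 over 27. The matrix genes Vim and Sparc both had a log2 difference of 0.00, and the endothelial genes Eng and Vwf had -0.17 and -0.19. IgG replicate 4 was the highest of the 7 libraries in the fibroblast, macrophage, class II and B cell scores, and for fibroblast genes the scores were 2.99 to 3.95 in anti-PD1 tumors and 4.73 in that library. Without it the fibroblast median was 0.24 and the class II median 0.21.

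Class I presentation genes as a list had a median of 0.16 over 25 members, with 19 positive, and 0.18 without IgG replicate 2. H2-T23, the nonclassical class I molecule Qa-1, was the only member above all IgG libraries, with 32.1, 30.4 and 34.3 CPM under anti-PD1 and 13.8, 24.5, 29.1 and 25.7 CPM under IgG, a log2 difference of 0.52. Of all 15002 genes tested, 143 (0.953%) lay above all IgG libraries. The chaperones Calr and Canx, which fold class I chains and many other proteins, had the most reads of the list, with log2 differences of -0.37 and 0.04.

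**Figure D3:**
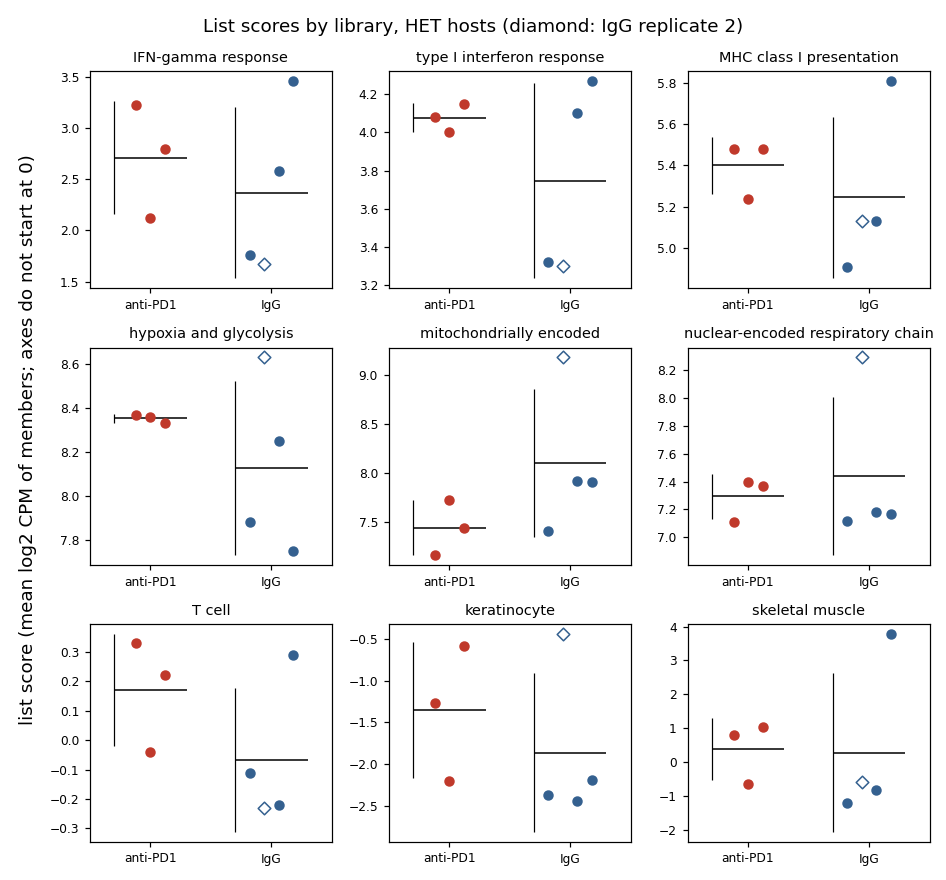
Mean log2 CPM of the members of 9 gene lists in each library from HET hosts, anti-PD1 at left and IgG at right, with group means and SDs, and a diamond for IgG replicate 2. Type I interferon scores are 4.00 to 4.15 under anti-PD1 and 3.30 to 4.27 under IgG. IgG replicate 2 stands apart in the mitochondrially encoded and nuclear-encoded respiratory panels. In the keratinocyte panel it stands apart from the other IgG libraries but lies near anti-PD1 replicate 3.

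Glycolysis and hypoxia genes gave the clearest pattern once IgG replicate 2 was left out. These genes code for the enzymes that split glucose and for targets of the hypoxia-inducible factor HIF, which rises when oxygen is scarce. Scores were 8.37, 8.36 and 8.33 in anti-PD1 tumors and 7.88, 8.63, 8.25 and 7.75 in IgG tumors. The anti-PD1 libraries agreed to within an SD of 0.02 and lay above IgG replicates 1, 3 and 4 and below replicate 2. Over 32 members the median log2 difference was 0.18 with all libraries, with 29 positive, and 0.43 without IgG replicate 2, with 30 positive. Within L number 7, where IgG replicate 2 is 1 of the 2 IgG libraries, the median was -0.12, with 11 positive and 21 negative. Without that library, 17 of 32 members (53.1%) had all anti-PD1 values above all IgG values, against 674 of all genes (4.49%). With it, 2 members did, against 143 of all genes (0.953%). No member was called in either fit. The median member lay 0.48 above IgG replicate 1, 0.59 above replicate 4 and 0.11 above replicate 3, the library that shares L number 7, while it lay below replicate 2 by a difference of -0.41. Beyond that 1 library, the L number and the antibody cannot be told apart in this difference.

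Among glycolytic enzymes, Pkm, which makes pyruvate, had 5211, 5966 and 5160 CPM in anti-PD1 tumors and 3794, 8043, 4743 and 3615 CPM in IgG tumors. Its log2 difference was 0.18 ± 0.22 with all libraries and 0.43 ± 0.18 without IgG replicate 2 (SE). Gapdh had 6603, 7511 and 6347 CPM under anti-PD1 and 4614, 12920, 5937 and 4669 CPM under IgG. In both genes IgG replicate 2 was the highest library and the other IgG libraries were the 3 lowest. Pgk1 (phosphoglycerate kinase) had 2936, 3164 and 2765 CPM under anti-PD1, against 2116, 3952, 2534 and 2194 CPM under IgG. Ldha (lactate dehydrogenase) had 2863, 2682 and 2630 CPM under anti-PD1, against 2104, 4130, 2174 and 2265 CPM under IgG. Pgam1 (phosphoglycerate mutase) had 518.3, 531.6 and 516.9 CPM under anti-PD1, against 435.2, 640.2, 487.6 and 435.9 CPM under IgG, again with IgG replicate 2 the highest library and the other IgG libraries below all anti-PD1 libraries. The members above all 4 IgG libraries were Car9 and Ero1l. Car9, a cell surface carbonic anhydrase and HIF target, had 204.8, 200.7 and 190.4 CPM under anti-PD1 and 100.4, 166.3, 161.1 and 161.0 CPM under IgG, a log2 difference of 0.46 ± 0.49 (SE). Ero1l, an oxidase of the endoplasmic reticulum, had 551.4, 499.9 and 505.3 CPM under anti-PD1 and 363.2, 402.3, 495.4 and 250.9 CPM under IgG. Pgk1, Ldha, Pgam1, Car9 and Ero1l were chosen after their values were seen.

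The upstream bases of 3 of these genes are given because HIF acts through short sites that contain ACGTG. Shown are the 150 bases before the RefSeq gene start in GRCm38.p6, on the plus strand, with ACGTG or its reverse complement in capitals, at chr7:46845654-46845803 for Ldha, chrX:106186950-106187099 for Pgk1 and chr19:41911721-41911870 for Pgam1, none of which overlap an exon of GENCODE vM21.
Ldha: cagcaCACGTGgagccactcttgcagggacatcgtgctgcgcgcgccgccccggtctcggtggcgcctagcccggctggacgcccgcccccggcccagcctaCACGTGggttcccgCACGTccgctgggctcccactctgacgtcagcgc
Pgk1: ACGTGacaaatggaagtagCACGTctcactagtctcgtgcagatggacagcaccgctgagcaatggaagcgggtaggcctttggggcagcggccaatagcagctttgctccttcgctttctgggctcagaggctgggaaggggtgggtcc
Pgam1: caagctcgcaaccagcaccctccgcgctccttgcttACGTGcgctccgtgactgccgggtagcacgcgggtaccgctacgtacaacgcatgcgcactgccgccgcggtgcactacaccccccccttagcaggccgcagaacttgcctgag
The runs of 6 capitals in Ldha are CACGTG, which reads the same on both strands and counts as overlapping matches. Of 32 members, 30 had a promoter in the table and 11 of these (36.7%) held ACGTG within the 150 bases, against 3014 of 27025 promoters (11.2%). Ero1l had no entry. The other enzymes named, Pkm and Gapdh, had no match in this window.

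Mitochondrially encoded genes stood lower in anti-PD1 tumors, and IgG replicate 2 carried most of the difference. All 15 had a negative log2 difference with all libraries, with a median of -0.66, and 13 without IgG replicate 2, with a median of -0.23. Scores were 7.16, 7.72 and 7.43 under anti-PD1 and 7.40, 9.18, 7.92 and 7.91 under IgG. The members of most reads were mt-Co1 and mt-Cytb, subunits of the respiratory chain. mt-Co1 had 7958, 10690 and 9649 CPM under anti-PD1 and 7251, 39280, 11340 and 10900 CPM under IgG, so 1 IgG library was several times higher than all others. Of the 15 members, 4 (26.7%) lay below all IgG libraries, against 154 of all genes (1.03%), and the same 4 did so by definition without IgG replicate 2, where 690 genes (4.60%) did. These were mt-Nd3, mt-Atp6, mt-Atp8 and mt-Rnr1, chosen after their values were seen. mt-Atp6, an ATP synthase subunit, had 60.4, 74.4 and 70.8 CPM under anti-PD1 and 80.7, 105.2, 88.9 and 108.5 CPM under IgG, a log2 difference of -0.48 ± 0.22 (SE) that was -0.43 without IgG replicate 2. mt-Atp8, whose gene overlaps that of mt-Atp6, had 4.96, 5.23 and 4.71 CPM under anti-PD1 and 9.93, 11.8, 7.81 and 10.6 CPM under IgG. mt-Nd3, a complex I subunit, had 1.53, 2.17 and 1.63 CPM under anti-PD1 and 2.98, 4.41, 3.81 and 3.77 CPM under IgG.

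**Figure D4:**
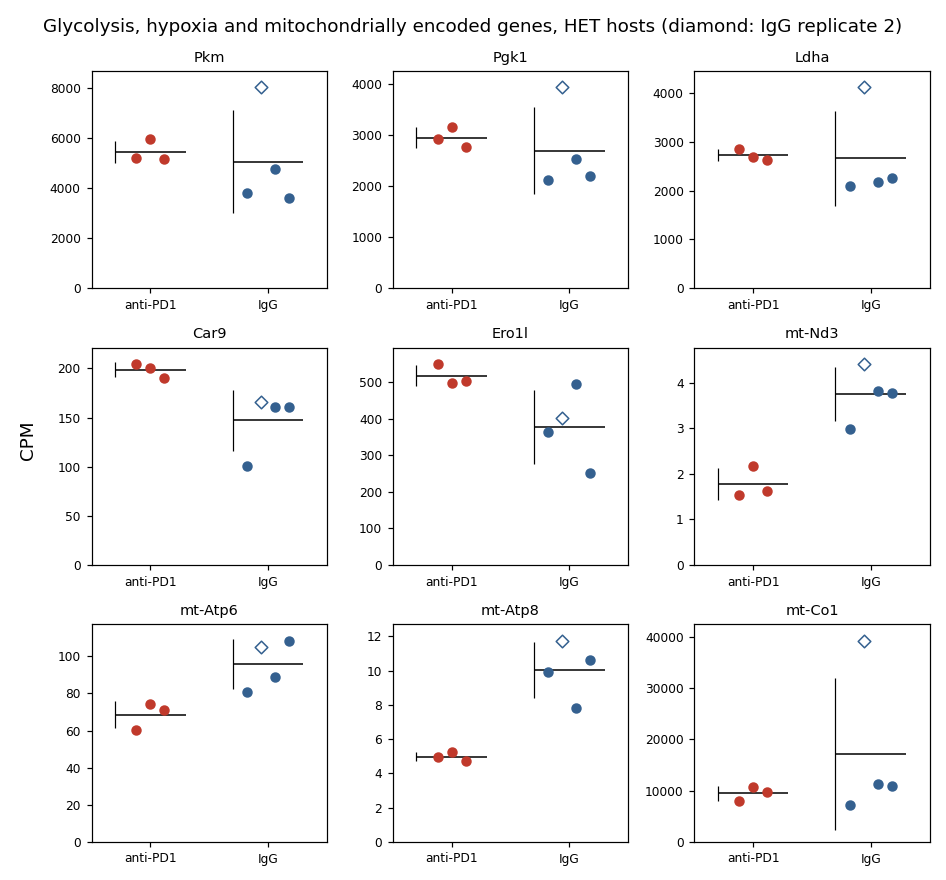
CPM of 9 glycolysis, hypoxia and mitochondrially encoded genes in each library from HET hosts, anti-PD1 at left and IgG at right, with group means and SDs, and a diamond for IgG replicate 2. Pkm, Pgk1 and Ldha lie above the IgG libraries in all anti-PD1 libraries except for the diamond, Car9 and Ero1l lie above all 4, and mt-Nd3, mt-Atp6 and mt-Atp8 lie below all 4.

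The nuclear-encoded genes of the respiratory chain changed direction with IgG replicate 2. Of 74 members 5 had a positive difference with all libraries, with a median of -0.15, and 71 without it, with a median of 0.14. Scores were 7.11, 7.40 and 7.37 under anti-PD1 and 7.12, 8.29, 7.18 and 7.17 under IgG, so IgG replicates 1, 3 and 4 agreed closely and anti-PD1 replicate 1 lay with them. Atp5b, the beta subunit of ATP synthase, had 1587, 1817 and 1785 CPM under anti-PD1 and 1579, 2932, 1565 and 1550 CPM under IgG, and Atp5a1, the alpha subunit, had 927.7, 1131 and 1122 CPM under anti-PD1 and 927.3, 1987, 933.3 and 874.8 CPM under IgG. Cytosolic ribosomal protein genes likewise had 14 of 69 positive with a median of -0.12, and 62 with a median of 0.06 without IgG replicate 2. Rpsa and Rplp0 had log2 differences of -0.27 and -0.30 with all libraries, and -0.01 each without it. Melanocyte and pigment genes had a median of -0.14 over 20 with all libraries and 0.09 without it. Dct, an enzyme of melanin synthesis, had 9102, 13170 and 11020 CPM under anti-PD1 and 9579, 15700, 12220 and 9486 CPM under IgG, and Sox10, a melanocyte transcription factor, lay below all IgG libraries by a narrow margin, at 700.1, 464.9 and 698.4 CPM under anti-PD1 and 700.3, 781.2, 807.3 and 714.6 CPM under IgG. So did 154 of all 15002 genes tested (1.03%). Abundant nuclear long noncoding RNAs had 10 of 12 positive, with a median of 0.19, and 2 positive with a median of -0.40 without IgG replicate 2. Neat1, the scaffold of paraspeckles, had 495.2, 76.2 and 693.0 CPM under anti-PD1 and 505.0, 40.3, 623.5 and 318.7 CPM under IgG. Anti-PD1 replicate 2 and IgG replicate 2 were the low libraries of Neat1, and those 2 libraries also had the most genes with no read. Malat1 had a log2 difference of 0.14 with all libraries and 0.00 without IgG replicate 2. In all, the median of 7 of 28 lists changed sign.

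**Figure D5:**
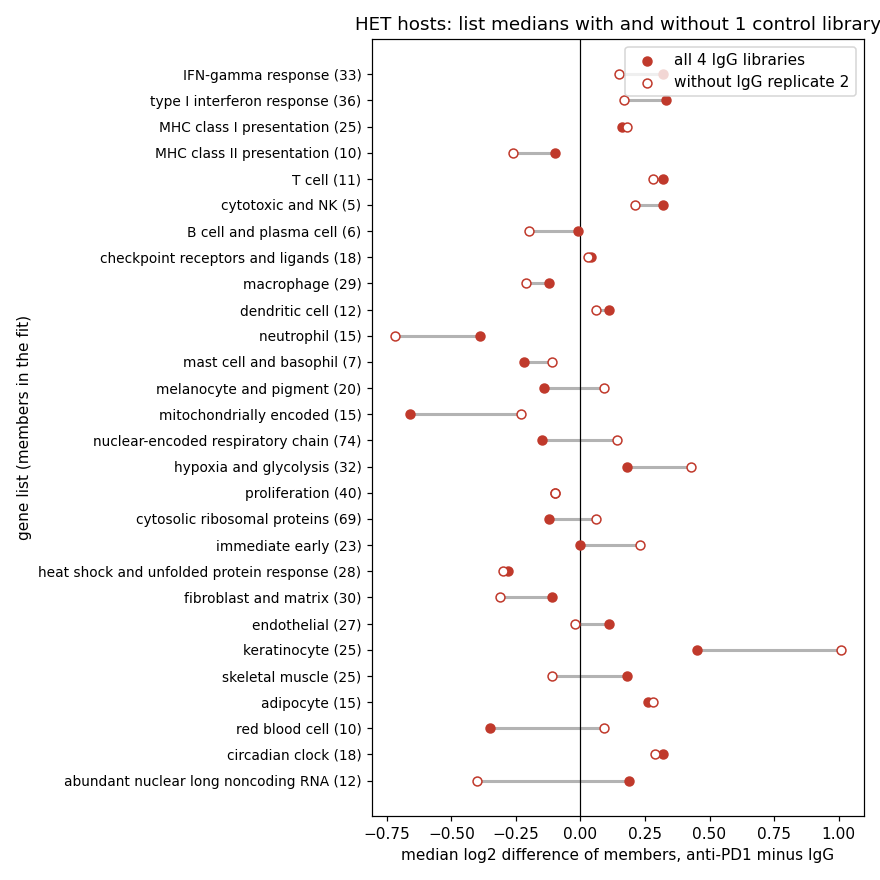
Median log2 difference (anti-PD1 minus IgG, HET hosts) over the members of 28 gene lists, with all 4 IgG libraries (filled) and without IgG replicate 2 (open), and the number of members in the fit in brackets. Hypoxia and glycolysis moves to 0.43 and keratinocyte to 1.01 without that library, and 7 lists cross 0.

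Proliferation genes had a median of -0.10 over 40 members both with and without IgG replicate 2. Top2a, which untangles DNA in dividing cells, had a log2 difference of 0.00. Heat shock and unfolded protein response genes had a median of -0.28 over 28, with 22 negative, and -0.30 without IgG replicate 2, but 0.05 within L number 7, with scores of 6.68 to 6.89 under anti-PD1, and of 7.38 and 7.26 in IgG replicates 1 and 4, the high libraries. Hsp90ab1 had a log2 difference of 0.01. Hspa8, a constitutive chaperone, had 2115, 1279 and 1867 CPM under anti-PD1 and 2897, 1368, 1795 and 3055 CPM under IgG. Circadian clock genes had 15 of 18 positive with a median of 0.32, or 0.29 without IgG replicate 2. The clock repressor Ciart lay above all IgG libraries, at 4.69, 3.99 and 3.75 CPM under anti-PD1 and 3.44, 2.15, 3.36 and 3.05 CPM under IgG. So did 143 of all 15002 genes tested (0.953%). The clock genes of most reads, Bhlhe40 and Bhlhe41, are repressors that hypoxia also induces, and had log2 differences of 0.45 ± 0.25 and 0.37 ± 0.26 (SE). Immediate early genes, which respond within minutes to handling and growth signals, had a median of 0.00 over 23, or 0.23 without IgG replicate 2, and the members of most reads, Klf6 and Jund, had log2 differences of 0.34 and 0.01.

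The RNA of marker genes of skin, muscle and blood differed between libraries of the same group. The amount of these tissues in a sample was not measured. Keratinocyte scores were -1.27, -2.21 and -0.58 in anti-PD1 tumors and -2.37, -0.44, -2.45 and -2.19 in IgG tumors. Anti-PD1 replicates 1 and 3 lay above IgG replicates 1, 3 and 4, anti-PD1 replicate 2 lay among them and IgG replicate 2 was the highest of all, so the list median was 0.45 with all libraries and 1.01 without it. Sbsn and Dsp, genes of the outer skin and of desmosomes, had log2 differences of 0.37 and 0.81. Sbsn went against the score: it was lowest in IgG replicate 2, at 3.70 CPM, against 7.22 to 11.5 CPM in the other libraries. Skeletal muscle scores were 0.80, -0.65 and 1.03 under anti-PD1 and -1.21, -0.59, -0.82 and 3.77 under IgG, with IgG replicate 4 far above the rest. Desmin (Des), the intermediate filament of muscle, had 3.28 to 12.2 CPM under anti-PD1 and 63.8 CPM in that IgG library. Hbb-bs, an adult beta globin, had 176.7, 156.8 and 41.4 CPM under anti-PD1 and 977.6, 293.8, 45.5 and 25.6 CPM under IgG. Adipocyte genes had a median of 0.26 over 15, with 12 positive, and Scd1 and Pnpla2, enzymes of fat synthesis and breakdown, each had a log2 difference of 0.02. The part of these tissues in the immune, matrix and energy lists was not tested. A fit that also held keratinocyte and muscle scores called 0 genes, but the main fit did too, so this count cannot speak to that part. At an unadjusted p under 0.05 it had 471 genes, against 144 in the main fit.

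The genes that led by rank without being called were taken as the 10 in each direction with the smallest limma p among genes whose groups did not overlap, out of 79 candidates higher and 91 lower. The higher ones were Bbs4, Hsdl1, Inha, Smad1, Ccdc174, Alg11, Ccdc55, Kctd9, Tbce and Ddit3, with log2 differences of 0.30 to 1.12. Bbs4, a protein of the cilium's BBSome, had 17.5, 23.7 and 18.5 CPM in anti-PD1 tumors and 16.3, 10.8, 17.1 and 12.3 CPM in IgG tumors. Inha, the inhibin alpha subunit, which opposes activin, had 7.29, 11.2 and 8.31 CPM under anti-PD1 and 3.05, 3.04, 7.04 and 3.92 CPM under IgG, a log2 difference of 1.12 ± 0.42 (SE) that was 0.99 without IgG replicate 2. Smad1, a signal carrier of bone morphogenetic proteins, had a log2 difference of 0.43 ± 0.16 (SE) and 0.26 without IgG replicate 2. Ddit3 (CHOP), a stress transcription factor, had 58.5, 84.7 and 62.9 CPM under anti-PD1 and 42.4, 29.3, 58.3 and 43.8 CPM under IgG. In each of the 10, IgG replicate 2 was the lowest of the 7 libraries, and the gap between the groups could be narrow, as for Ccdc55, whose lowest anti-PD1 library had 25.5 CPM and whose highest IgG library had 25.3 CPM.

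The lower ones were Nfkb2, Ppm1m, Rtn3, Car14, Ccnd3, Tspan7, Slc52a2, Zdhhc2, Lman2 and Ryk, with log2 differences of -0.28 to -1.11. Nfkb2, the p100/p52 subunit of the noncanonical NF-kB pathway, had 32.3, 21.5 and 30.52 CPM in anti-PD1 tumors and 39.7, 33.4, 35.9 and 45.7 CPM in IgG tumors. Its log2 difference was -0.47 ± 0.16 (SE) with all libraries and -0.54 without IgG replicate 2. Zdhhc2, a palmitoyltransferase, had 15.7, 17.1 and 17.9 CPM under anti-PD1 and 38.0, 36.6, 22.1 and 58.3 CPM under IgG, a log2 difference of -1.11 with and without IgG replicate 2. These 2 genes and Tspan7, a tetraspanin at -0.41 and -0.33, kept most of their size without that library. IgG replicate 2 was the highest library in every one of the lower genes except Nfkb2 and Zdhhc2, and so in Tspan7 too. For Rtn3, Car14, Slc52a2 (a riboflavin transporter) and Lman2 the differences were -0.14 to -0.25 without that library. Ccnd3, cyclin D3, had 124.8, 79.7 and 124.0 CPM under anti-PD1 and 131.1, 237.2, 125.8 and 160.4 CPM under IgG. Limma's adjusted p was 1.0 for each of these 20 genes.

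The same antibody in wild type (WT) hosts, labelled ARE-del +/+, is set beside these values, with WT IgG replicates 1 to 5 and WT anti-PD1 replicates 1 to 4. The L number is 5 for all of these WT libraries except WT anti-PD1 replicate 4, where it is 6. It is 6, 7 or 8 in the HET libraries, so host and L number can hardly be told apart in what follows. The difference between hosts in the response (HET anti-PD1 minus HET IgG, less WT anti-PD1 minus WT IgG) was tested for each gene with limma, and 0 of 15002 were called (0%). At an unadjusted p under 0.05 there were 155, again a smaller share than the 0.05 that this threshold gives when no gene differs. This count too depended on the fit, at 2034 with library weights, and does not show that no gene differs. The median response of interferon gamma genes was 0.32 in HET hosts and 0.74 in WT hosts, and that of class II genes was -0.10 in HET hosts and 1.11 in WT hosts. Macrophage genes had medians of -0.12 in HET hosts and 0.68 in WT hosts, fibroblast genes -0.11 in HET hosts and 1.15 in WT hosts, and keratinocyte genes 0.45 in HET hosts and -0.69 in WT hosts. Type I interferon genes had 0.33 in HET hosts and 0.22 in WT hosts, and class I genes 0.16 in HET hosts and 0.30 in WT hosts. Hypoxia and glycolysis genes had 0.18 in HET hosts and -0.08 in WT hosts, and melanocyte genes -0.14 in both. Without IgG replicate 2 the HET medians were 0.15 for interferon gamma, -0.26 for class II and -0.21 for macrophage genes. They were -0.31 for fibroblast, 1.01 for keratinocyte and 0.43 for hypoxia and glycolysis genes. Cd74 differed between hosts by -1.43 ± 1.47 (SE) on the log2 scale, and Cd274 by -0.01 ± 0.51. A difference between hosts was not shown for any gene, and the list medians were not tested.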

How the data were processed

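RNA was extracted from frozen tumors and sequenced from Illumina TruSeq libraries, per the labels' protocols. Per the submitters' processing notes, the tools were STAR and edgeR (no versions given) and the genome build was mm10. What the authors deposited is log2 CPM for 18975 genes in 30 libraries, with a prior of 2 reads. They were taken back to whole reads within 0.01 reads for 100% of the values. CPM given here are those reads over the effective library size. Strandedness and the annotation release are not given in the sources used here, so overlapping genes cannot be told apart.

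Genes with log2 CPM above 0 in at least 3 libraries (15002) were fitted with limma 3.58.1 (trend) in R 4.3.3, 1 mean per group over all 30 libraries. Calls used a Benjamini-Hochberg adjusted p under 0.05. Log2 differences carry the prior and understate low genes. Intervals and the floor of 3 reads cover counting error only, while those of log2 differences are limma's. Single genes were also tested by exact permutation over 35 splits. The fit was tested on simulated data. Alternatives were each library left out, other fits (voom, library weights, the 7 libraries alone, a replicate block), filters, priors, scalings, the L number and tissue scores. Same-numbered libraries of the 2 groups had correlations of 0.21, 0.31 and 0.00 in their deviations, so the numbers were not taken as pairs.

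The comparison, the 28 gene lists and the 16 single genes were chosen with earlier results of these data known. Named are the single genes, called genes, the 10 leading genes in each direction (mean log2 CPM of at least 2, groups that do not overlap, smallest p, no predicted genes) and the 2 members of most reads in each list; others are said to be chosen after their values were seen. These are H2-T23, Adora2a, Ly6c2, Sox10, Ciart, Ifit3 and Rsad2, beside those marked in the text. 1 further gene is not reported here. Promoter bases are from the RefSeq table of GRCm38.p6.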

Additional observations from a re-analysis of the deposited data

Results flagged for a closer look

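In the 4 IgG libraries from HET hosts, 65 scores, genes and library measures were checked for a value whose gap to its neighbor was above Dixon's 95% critical value as a share of the group's range. There were 8 such values, and 6 of them were in IgG replicate 2. The 1 in 20 that chance gives for a single group is no yardstick for this count. The items share the same libraries and include leading genes picked from these data. The nuclear-encoded respiratory score was 7.11 to 7.40 in the anti-PD1 libraries and 8.29 in that IgG library, and the keratinocyte score was -2.21 to -0.58 in the anti-PD1 libraries and -0.44 in it. Ccdc55 was at 3.20 log2 CPM, Tbce at 4.35 and Slc52a2 at 5.66, so the place of these 3 among the leading genes rests in part on it. Xist, the noncoding RNA of X inactivation that female cells express, was at 1.23 log2 CPM there, against 3.89 to 5.44 in the other 6 libraries. In IgG replicate 4 the skeletal muscle score was 3.77 and Cd74 was at 6.32 log2 CPM. The causes were not tested.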

How the results depend on the processing

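The count of 0 called genes held in the comparison with all libraries under every fit run except 2. Library weights gave 50 (34 higher, 16 lower, with 3004 at an unadjusted p under 0.05), and 274 without IgG replicate 2, with all 50 among them. Leaving out 1 library gave 0 to 1. The difference between hosts gave 0 under each alternative run. A replicate block gave 0 calls and 105 genes at an unadjusted p under 0.05, and changed no other call. Among the single genes, 9 changed sign under some setting. The ranges on leaving out 1 library were -0.18 to 0.70 for Pdcd1, -0.43 to 0.13 for Cd40, -0.32 to 0.22 for Irf1, -0.12 to 1.31 for Cxcl9, -0.04 to 0.42 for Irf7, -0.85 to 0.49 for Cd74, -0.84 to 0.13 for Mitf, -0.53 to 0.10 for Pmel and -0.08 to 0.66 for Mki67. With the L number as a covariate Cd40 was at 0.02, Irf7 at -0.03 and Cd74 at 0.13. Within L number 7 Cd40 was at 0.02, Cd74 at 0.57 and Mitf at 0.11. With library weights Irf1 was at 0.20, Cd74 at 0.59, Pmel at 0.18 and Mki67 at -0.07. The causes were not tested. No scaling moved the median of all genes by more than 0.058 log2 units. With 3 and 4 libraries and a median standard error of 0.28, small differences were not detectable.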
